A study of Mus musculus with 2 samples.

Results

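The clustered protocadherins are cell-surface proteins of the cadherin superfamily, encoded by the alpha, beta and gamma gene clusters that lie one after another on mouse chromosome 18. They were taken here as every gene row whose symbol follows the naming pattern of the alpha, beta or gamma genes and that is not annotated as a pseudogene. This gave 57 members of 43346 Ensembl genes: 14 alpha, 22 beta and 21 gamma. Pcdhgb8 matched the pattern but is annotated as a polymorphic pseudogene and was left out. The symbol Pcdha11 was carried by 2 rows. The row ENSMUSG00000007440 is called Pcdha10 here, after the RefSeq gene whose start lies 117 nt from its own.

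The libraries were made from total RNA of midbrain from embryos of the B6NCrl strain at embryonic day 15.5, with males and females pooled. Replicate 1 pooled 78 embryos and replicate 2 pooled 62, and 10 ng of RNA entered each library. No genetic change or treatment is given in the labels, and with a single tissue, age and strain no comparison between conditions can be made. The libraries held 38966386 expected counts in replicate 1 and 40419493 in replicate 2, where an expected count is the number of reads a statistical model assigns to a gene. The midbrain genes Otx2 (66.2 ± 0.177 TPM), En1 (8.95 ± 1.90) and Pax7 (2.97 ± 0.170) were all present, as means ± SD of the libraries (n = 2). TPM is a level per transcript length, which allows genes to be compared, and every level below is in this unit.

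A neuron switches on a small, partly random subset of these genes, and the proteins bind matching copies on other cells, which lets neurites tell self from non-self. In the alpha and gamma clusters each member has a long variable exon of its own, which carries the extracellular part, spliced to constant exons shared by the whole cluster, which carry the common intracellular end. Beta members consist of their own exons and have no constant part. The last alpha and gamma genes, called C-type, are known to be used more widely among neurons than the genes before them. In whole tissue these choices are averaged over cells, and fewer cells using a gene and less RNA per cell cannot be told apart.

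In mm10 the clusters span 911690 nt of chromosome 18, all on the plus strand. Alpha lies at 36930184 to 37187661, beta at 37264938 to 37524479 and gamma at 37661793 to 37841873. The annotation gives alpha constant exons of 59, 89 and 2712 nt and gamma constant exons of 59, 89 and 1971 nt. Bases held by no other member made up a median of 46.6% of the exon bases of alpha members, 55.4% of gamma and 100% of beta, where 20 of 22 members shared no base. The exceptions, Pcdhb21 and Pcdhb22, overlap by 455 nt. The largest overlap outside the constant exons was 1038 nt between Pcdhgb1 and Pcdhga4, from a transcript of Pcdhgb1 listed at 0 counts.

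Nearly the whole family was expressed in the embryonic midbrain, at low to moderate levels. Of the 57 members, 56 reached 1 TPM in each library, against 35.4% of all Ensembl genes. Together the members took 0.115% of the Ensembl gene counts in replicate 1 and 0.118% in replicate 2, or 43723 and 46498 counts. Their median was 4.71 ± 0.184 TPM (n = 2), and 23.1% of the expressed genes lay below that value. The order of the members was close to the same in both pools (Spearman rho 0.99 over 57 members, across genes within shared libraries).

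The alpha and gamma medians lay above the beta median. They were 6.90 ± 0.269 TPM for alpha, 6.24 ± 0.233 for gamma and 2.95 ± 0.180 for beta. Within a library, the gamma median exceeded the beta median by 0.87 ± 0.02 on the log2(TPM + 1) scale, and the beta median was below the alpha median (difference -1.0 ± 0.02). Gamma minus alpha was -0.13 ± 0.002 for the medians but 0.52 for the means of the members' log2(TPM + 1) values. The SDs come from the 2 pools and leave out the spread among genes. An exact two-sided p cannot go below 0.5 with 2 libraries, so none is given. Of all member counts, gamma took 61.4% ± 0.532, alpha 22.2% ± 0.180 and beta 16.4% ± 0.351. Of the members' summed TPM, gamma took 64.7% ± 1.19, alpha 17.9% ± 0.521 and beta 17.4% ± 0.672, so alpha and beta were close.

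**Figure D1:**
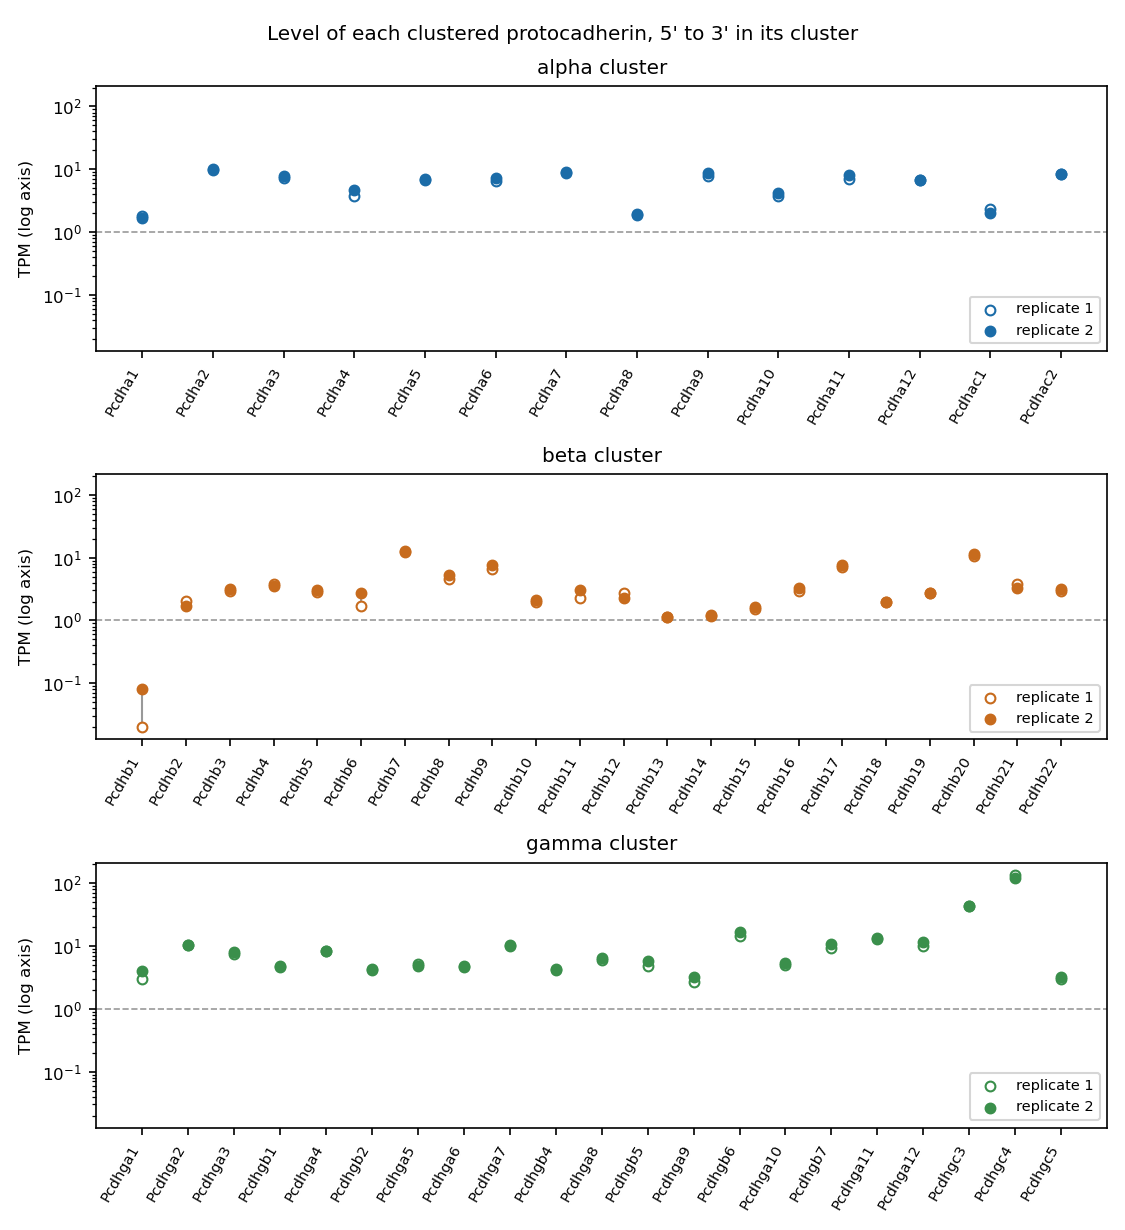
TPM (log axis) of each alpha, beta and gamma member in chromosomal order, with an open point for replicate 1, a filled point for replicate 2 and a dashed line at 1 TPM. Pcdhb1 lies below the line in both libraries, and Pcdhgc3 and Pcdhgc4 stand above all other members.

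The C-type genes held both the highest members and some of the lowest. Pcdhgc4, the gamma isoform that neurons of the mouse need for survival, was at 136 TPM in replicate 1 and 120.45 in replicate 2. It was the highest member in both libraries and took 28.8% and 25.3% of the members' summed TPM, and 19.8% and 18.1% of their counts. Pcdhgc3, which is known to bind Axin1 and dampen Wnt signalling, was at 43.4 and 44.05 TPM. Both libraries placed it next, clear of Pcdhgc4 above and of the remaining members below. Pcdhgc5, whose protein binds GABA-A receptor subunits, was at 3.01 and 3.20 TPM, and only Pcdhga9, whose values overlapped it, had a lower mean in the gamma cluster.

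The alpha C-type genes also differed from each other. Pcdhac2, which serotonergic neurons need for the even spacing of their axons, was at 8.47 and 8.52 TPM, behind Pcdha2 and Pcdha7 in its cluster by mean and overlapping Pcdha9 (7.81 and 8.68). Pcdhac1 was at 2.34 and 2.00 TPM, 12th of 14. The serotonergic markers were themselves low: Tph2, the enzyme of serotonin synthesis, was at 4.87 ± 1.56 TPM, the transporter gene Slc6a4 at 4.67 ± 0.0354 and the transcription factor gene Fev at 1.47 ± 0.0212. The 5 C-type members took 32.9% ± 1.57 of all member counts. Without Pcdhgc4 that share was 17.2%.

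Outside the C-type genes the alpha cluster varied 5.67-fold between its highest and lowest member. Pcdha2 was highest at 9.71 and 9.91 TPM, followed by Pcdha7 at 9.10 and 8.75. At the lower end Pcdha1, the first gene of the cluster, was at 1.79 and 1.67 TPM. Pcdha8 was at 1.89 and 1.91 TPM. Between these ends 8 alpha members had means of 4.01 to 8.25 TPM. Neighbours in the order of levels had overlapping values in 6 of 13 alpha pairs, so much of the middle order was not resolved. Overlap was judged only from the values of the 2 libraries, so pairs without it were not thereby resolved. Pcdha5 and Pcdha12 did not overlap by this rule. Their TPM intervals listed for replicate 2 did, at 6.22 to 7.39 and 5.93 to 7.02. The same limit holds for the beta and gamma pairs below. Chromosomal order and level showed little relation among the 12 alpha members outside the C-type (Spearman rho -0.04, genes of the same 2 libraries, as a description).

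Most beta genes were low, and Pcdhb7 and Pcdhb20 stood apart above the rest. Pcdhb7 was at 12.4 and 12.8 TPM and Pcdhb20 at 10.7 and 11.3. By mean they were 5th and 6th of all 57 members. Pcdhb17, at 7 and 7.55 TPM, and Pcdhb9, at 6.59 and 7.70, came next and overlapped. Pcdhb14 and Pcdhb13 lay just above 1 TPM, at 1.23 and 1.19 and at 1.14 and 1.15. Pcdhb1, the first beta gene, was the only member below 1 TPM, with 0.02 and 0.08 TPM from 1 and 5 counts. The other 15 beta genes had means of 1.59 to 4.94 TPM. Overlapping values were found in 12 of 21 neighbouring beta pairs, and rho between chromosomal order and level was 0.18 over the 22 genes.

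The gamma genes before the C-type fall into the A and B subfamilies, which differ in the sequence of their variable exons and alternate along the cluster. The 12 gamma-A members had a median of 6.97 ± 0.262 TPM and the 6 gamma-B members 5.01 ± 0.438. The highest of these 18 was Pcdhgb6, at 14.4 and 16.6 TPM, behind only Pcdhgc4 and Pcdhgc3 in the family. Pcdhga11 followed at 12.8 and 13.4 TPM. The lowest by mean was Pcdhga9, at 2.65 and 3.24 TPM, with Pcdhga1, the first gamma gene, at 2.99 and 4.03. The gamma genes outside the C-type spanned 5.25-fold, close to the alpha range. In the gamma cluster 8 of 20 neighbouring pairs overlapped, and rho of order with level was 0.38 over the 18 genes.

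Pcdhgc4 owed a large part of its level to a transcript with little sequence of its own. Of the 3 listed transcripts, Pcdhgc4-203 joins 153 nt of its own to the gamma constant exons, so that 93.3% of its 2272 nt is shared with the other gamma members. It took 62.8% of the gene's abundance in replicate 1 and 55.1% in replicate 2, with 4337 and 3476 expected counts. Pcdhgc4-201, which holds the full variable exon, took 12.4% and 18.4%, with 1941 and 2630 counts. Pcdhgc4-202, annotated as a retained intron, took 24.8% and 26.5%. Without Pcdhgc4-203 the gene stood at 50.6 and 54.1 TPM and took 10.9% and 11.5% of the remaining member counts. At that level it was still above the 43.4 and 44.05 TPM of Pcdhgc3, but most of what remained was Pcdhgc4-202, at 33.8 and 32.0 TPM. The order of the full-length forms was the reverse. Pcdhgc4-201 was at 16.9 and 22.1 TPM, below Pcdhgc3-201 at 34.4 and 31.95.

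Pcdhgc3 and Pcdhgc5 were led by their full-length forms. Pcdhgc3-201 took 79.1% and 72.5% of its gene, and Pcdhgc3-202, annotated for nonsense-mediated decay, took 20.0% and 26.7%. For Pcdhgc5 the full-length transcript took 66.6% and 52.3%, and the rest lay mainly on a retained-intron form (33.4% and 35.1%). Part of the Pcdhgc3 sequence is also covered from the other strand: 1559 nt of its exons, 46.1% of those outside the constant exons, lie opposite BC037039, listed at 5.44 ± 0.219 TPM. Whether the counting used strand is not given in the sources used here and was not tested. It is therefore not known whether reads of the overlapping pair were told apart.

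**Figure D2:**
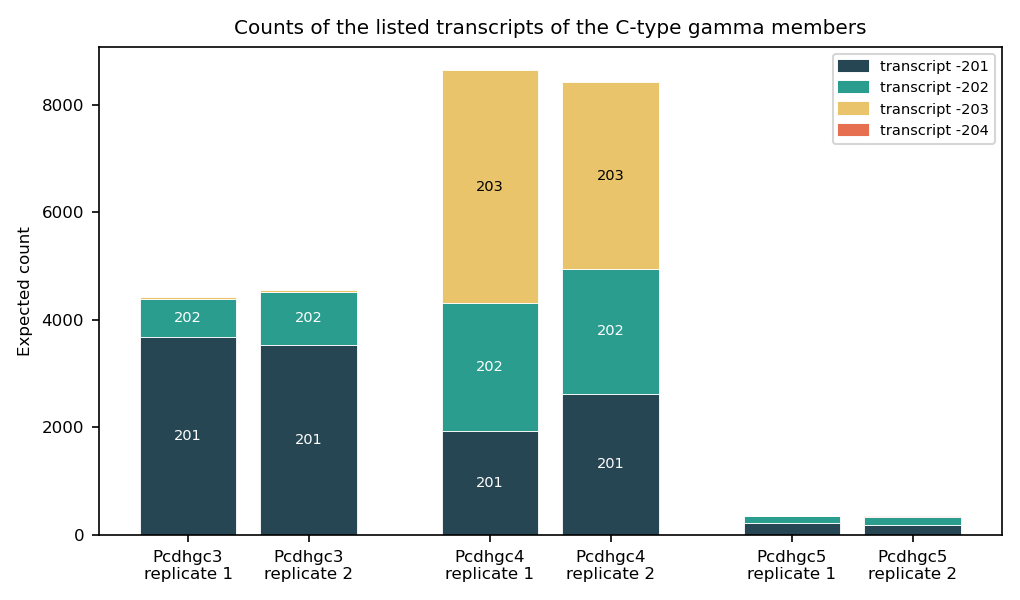
Expected counts of the listed transcripts of Pcdhgc3, Pcdhgc4 and Pcdhgc5 in each library, stacked from zero and coloured by transcript number. The mostly constant Pcdhgc4-203 is the largest part of Pcdhgc4 in both libraries, with 4337 and 3476 counts, while the full-length form leads in Pcdhgc3 and Pcdhgc5.

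Across the gamma cluster, transcripts that join at least 1000 nt outside the constant exons to constant exons took 72.3% and 76.1% of the counts. Transcripts with constant exons but less than that took 16.1% and 12.3%, nearly all from Pcdhgc4-203, and transcripts with no constant exon took 11.6% in both libraries. In alpha these shares were 96.5% and 96.2%, 0.0630% and 0.193%, and 3.48% and 3.57%. Retained-intron forms took 11.0% and 11.1% of gamma counts and 6.0% and 5.98% of alpha counts. Pcdhgc4-202 alone held 2367 and 2314 of the gamma retained-intron counts, which were 2974 and 3141. It also made up most of the gamma counts with no constant exon, 3143 and 3301. The limit of 1000 nt was chosen after the transcripts had been seen.

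The last alpha constant exon is listed in a long form and in a form with an inner intron removed. Both forms were listed for 5 of 14 alpha members. Transcripts with the long form took 78.3% and 80.8% of alpha counts, and those with the intron removed 15.6% and 13.0%. The other 9 members list no spliced form, so their counts could not be placed in it. Over the 5 members listing both, the spliced form had 1509 and 1350 counts and the long form 857 and 1266. Pcdha2 was mostly in the spliced form, at 78.1% and 79.3% of its abundance, and all expected counts of Pcdha1 were placed in it. By listed abundance Pcdha6 changed its leading form between the libraries, with the spliced Pcdha6-201 at 61.1% in replicate 1 and 25.8% in replicate 2. The posterior count of this transcript was 362 with a posterior SD of 107 in replicate 1 and 289 with an SD of 119 in replicate 2, a difference smaller than either SD. For the long form Pcdha6-202 it was 340 (SD 108) and 558 (SD 135). That difference is larger than either SD, but the SD of a difference is also larger than either. The posterior means led with the same forms as the expected counts. In replicate 1, however, they were 362 and 340, closer than either SD, so the leading form there was not resolved. The other 20 of the 21 members with several transcripts kept the same leading transcript. Pcdha11 was led by the retained-intron form Pcdha11-205, at 45.1% and 36.5%.

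Since alpha and gamma members share exons, the spread of the read assignment was set beside the exon structure. The tables give for each gene an expected count and the mean and SD of the posterior distribution of that count. The SD was a median of 2.96% of the posterior mean in alpha, 3.16% in gamma and 0.219% in beta, taking the higher library for each of the 56 members that averaged at least 10 counts. The SD was 0 in 8 of 56 members, all of them beta, and in 12229 of all 18269 genes tested. The median over the 56 members was 2.39%, against 0 over all genes tested. Over 10% lay 1 of 56 members, against 4.99% of all genes tested. Among alpha members the spread was larger where counts were lower (rho -0.95 over 14 genes), as it was in gamma (rho -0.93 over 21 genes). The percent of own bases had rho -0.74 with the spread over all members. Within clusters that rho was 0.24 in alpha, 0.06 in gamma and -0.36 in beta. These are descriptions across genes of the same libraries.

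The single member over 10% was Pcdha4, with a posterior SD of 17.7% in replicate 1 and 13.0% in replicate 2. Its expected counts were 379 and 471, at 3.80 and 4.72 TPM. Of its exon bases outside the constant exons, 82.9% also belong to Gm42416, a gene annotated on the same strand that runs from the Pcdha4 exon to the gamma constant exons. Gm42416 was listed at 229 and 266 expected counts, with posterior SDs of 31.5% and 20.4%. The counts of Pcdha4 and Gm42416 together were 608 and 738.

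**Figure D3:**
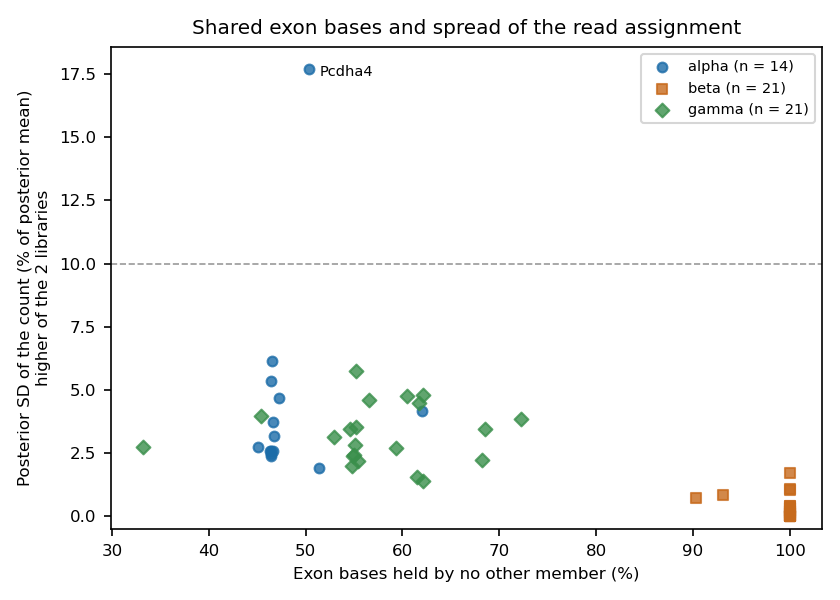
Posterior SD of the count as a percent of the posterior mean (higher of the libraries) against the percent of exon bases held by no other member, for the 56 members that averaged at least 10 counts, coloured by cluster; the dashed line marks 10%. Beta members lie at 90.3% or more own bases with spreads of at most 1.72%, and Pcdha4 is alone above the line.

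Expected and posterior mean counts were close in all members. Both are estimates from the same reads and annotation, so their closeness, like a small posterior SD, cannot show that constant-exon reads went to the right member. In none of the 56 did they differ by over 10% in either library, against 1.51% of all genes tested. The largest difference was that of Pcdha4, whose expected count differed from its posterior mean by -7.42% in replicate 1 and -3.30% in replicate 2. The medians of the larger difference per gene were 0.383% in alpha, 0.402% in gamma and 0.00402% in beta. In all, 13 members had exon bases opposite a gene listed on the other strand. Pcdhga10 was covered over all 2613 nt of its variable exon by Gm26672 (5.15 ± 0.566 TPM), and had the largest posterior SD of the gamma cluster, 5.75% in replicate 1 and 4.98% in replicate 2. Gamma members covered in part ranged from 1.56% in Pcdhgc3 (46.1% covered) to 4.78% in Pcdhga1 (12.5% covered), taking the higher library. A link between cover and spread was not tested.

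No member passed the test between the pools. In an exact binomial test of each gene (two-sided, Benjamini-Hochberg adjustment over 18269 genes), 0 of 56 members reached an adjusted p under 0.05 with a 2-fold difference, against 1.63% of all genes tested. At an unadjusted p under 0.05 there were 13 members of 56, against 30.6% of all genes. Without the fold threshold 10 of 56 members passed, against 19.3%. The edgeR exact test with a common dispersion called 0 of 56 with or without the fold threshold, against 0.865% and 1.29% of all genes. The binomial p-values cover counting error only, and the edgeR test adds a spread estimated from the same 2 libraries. Both compare these libraries, and PCR copies of a molecule were not marked.

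Differences were small, and most members were slightly higher in replicate 2. By counts scaled to library size this was so in 42 of 56 members, against 49.7% of all genes tested, with a median log2 ratio of 0.07 and a range of -0.27 to 0.46. By cluster it was 10 of 14 alpha, 17 of 21 beta and 15 of 21 gamma members. Among the C-type genes it was 1 of 5 by scaled counts and 3 of 5 by TPM. Pcdhb6, with 143 and 203 counts, had the highest ratio, 1.37 (95% interval 1.11 to 1.72). Pcdhga1 had 316 and 446 counts, a ratio of 1.37 (95% interval 1.18 to 1.58). Pcdhgc4 had 8646 and 8419 counts and a ratio of 0.944 (0.916 to 0.972), but without Pcdhgc4-203 the ratio was 1.11 (1.07 to 1.16), in the opposite direction. These intervals cover counting error only. The ratio without Pcdhgc4-203 also rests on how the model split reads among the transcripts. The posterior SDs were 143 and 155 counts for Pcdhgc4-201 and 123 and 133 for Pcdhgc4-203, so the change of direction was not established.

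**Figure D4:**
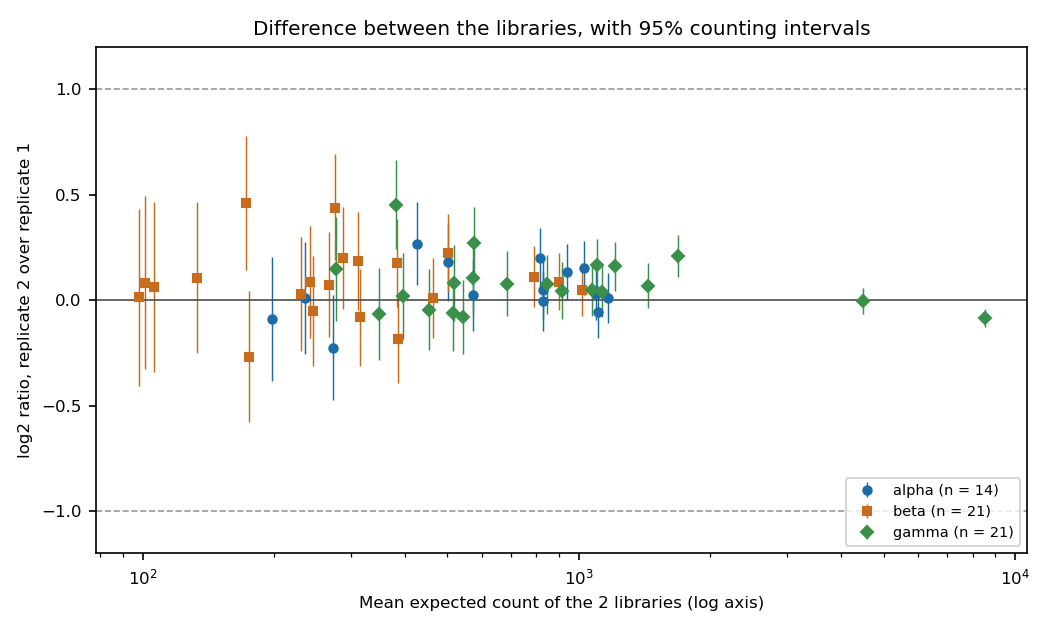
log2 ratio of replicate 2 over replicate 1 for the 56 members that averaged at least 10 counts against their mean expected count (log axis), coloured by cluster, with 95% exact counting intervals and dashed lines at a 2-fold difference. All members lie between -0.27 and 0.46, inside the dashed lines, and 42 lie above zero.

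Cell type markers also differed between the pools beside these small shifts. Neuronal markers summed to 3279 TPM in replicate 1 and 3297 in replicate 2, with 4 of 5 higher in replicate 2. Radial glia and progenitor markers summed to 1505 and 1425 TPM, with 0 of 5 higher in replicate 2. Summed levels were also lower in replicate 2 for meningeal (424 and 361 TPM, 0 of 4 higher), endothelial (123 and 99.5, 0 of 2), microglial (97.6 and 75.2, 0 of 3) and red cell markers (5967 and 4590, 0 of 2). Choroid plexus markers summed to 258 and 289 TPM, with 2 of 3 higher in TPM and most of the sum from Ttr (237 and 269). Liver markers summed to 7.86 and 0.17 TPM and epidermal markers to 0.29 and 9.74 TPM, and all 4 of these genes passed the test with the fold threshold. The midbrain and serotonergic markers were mixed, by the ratio of replicate 2 over replicate 1 in scaled counts. En1 was at 0.739, Otx2 at 1.01 and Pax7 at 1.06. Tph2 was at 1.59, Slc6a4 at 0.993 and Fev, with 47 and 38 counts, at 0.785. None of these markers was at 0, and their part in the shifts was not tested.

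The genes that act on promoter choice in these clusters were all expressed. CTCF binds the promoters and a distant enhancer, and cohesin joins them into a loop. Ctcf was at 105 and 86.6 TPM, and the cohesin genes Smc1a, Smc3 and Rad21 were at 64.5 ± 0.587, 49.5 ± 0.905 and 33.8 ± 2.21. Wapl, which releases cohesin from DNA, was at 10.9 ± 0.240. Among the DNA methyltransferases, Dnmt3b, which methylates the variable promoters early in development, was at 3.56 ± 0.0212, while Dnmt3a was at 116 ± 4.37. Smchd1, a repressor of the clusters, was at 25.6 ± 1.84 and the histone methyltransferase gene Setdb1 at 36.3 ± 0.870. The 18 genes of this list had a median of 35.0 ± 0.672 TPM. Between the pools 0 of 18 passed the test, against 1.63% of all genes tested. Without the fold threshold 6 of 18 passed, against 19.3%.

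Of 21 genes for proteins that bind or act downstream of clustered protocadherins, 20 were expressed, at a median of 51.6 ± 0.559 TPM. The kinase PYK2, encoded by Ptk2b and inhibited by the shared intracellular part, was the exception at 0.76 and 0.69 TPM. Its relative FAK, encoded by Ptk2, was at 37.6 ± 0.141. All genes listed for the WAVE complex, which drives actin branching, were expressed, from Wasf3 at 15.4 ± 0.0424 to Brk1 at 187 ± 5.93. Axin1, the partner of Pcdhgc3, was at 21.2 ± 2.57 and the adhesion gene Ncam1 at 439 ± 29.4. The neuroligin genes Nlgn1 and Nlgn2, whose proteins bind gamma protocadherins at synapses, were at 25.05 ± 3.44 and 19.7 ± 0.0283. None of the 21 passed the test between the pools, against 1.63% of all genes tested. Without the fold threshold 5 of 21 passed, against 19.3%.

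The machinery that cuts and sorts these proteins was likewise present. Adam10, which sheds the extracellular part, was at 49.6 ± 0.686 TPM. Vps35, a subunit of the retromer complex that sorts membrane proteins from endosomes, was at 147 ± 3.44. All 8 genes of the list were expressed. With or without the fold threshold 0 of 8 passed the test between the pools, against 1.63% and 19.3% of all genes tested. Among 10 genes beside or inside the clusters, 9 were expressed. Taf7, a general transcription factor gene between beta and gamma, was at 14.1 ± 0.453 TPM, while its neighbour Slc25a2, a mitochondrial carrier gene, was at 0.76 ± 0.127. The flanking genes Hars (101 ± 1.24), Zmat2 (52.0 ± 0.120), Diaph1 (5.89 ± 0.120) and Hdac3 (129 ± 1.92) spanned a wide range, and the non-clustered protocadherin gene Pcdh1 was at 11.0 ± 0.311. None of these 10 passed the test between the pools with or without the fold threshold, against the same shares of all genes.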

How the data were processed

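Total RNA was sequenced in 2 libraries of 1 group, each from its own pool of embryos. For each library 1 table of genes and 1 of transcripts was deposited. Per the file headers these hold expected counts, TPM, FPKM and posterior means and SDs, and the transcript tables give each transcript's percent of its gene's abundance. Per the authors' deposited notes the build was mm10 and the annotation GENCODE M4. Which aligner and counter were used, and with what strand setting, is not given in the sources used here. Spike-ins, with 2.30% and 2.42% of the counts, were kept out of the tests.

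Symbols came from a gene name table by Ensembl ID (42462 of 43346 matched). Exons, biotypes and coordinates came from GENCODE M21 on the same build, in which all 87 member transcripts had the length the tables give. Constant exons were bases held by over 50% of a cluster's members. Rounded expected counts were compared by an exact binomial test, two-sided, on TMM library sizes (edgeR 4.0.16, R 4.3.3), with 0.5 added for log2 ratios. Genes averaging at least 10 counts were tested, with an adjusted p under 0.05 and a 2-fold difference needed to pass. The test was checked on simulated data with counting noise only and planted 3-fold and 4-fold changes. That check does not cover added spread between pools or changes near 2-fold. DESeq2 1.42.0 size factors and the edgeR exact test were alternatives. The other steps ran in Python 3.11.15 (scipy 1.17.1, pandas 2.3.3, numpy 2.4.6, matplotlib 3.10.9).

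The members, gene lists and tests were chosen with earlier results of these data known. Named in full were the 3 highest and 3 lowest members of each cluster, all C-type members, members that passed the test between libraries and those with the largest posterior spread; other members and list genes are examples. No sequences are printed.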

Additional observations from a re-analysis of the deposited data

Results flagged for a closer look

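Pcdhgb8, annotated as a polymorphic pseudogene and left out of the members, carried reads in both libraries. It had 105 and 130 expected counts, at 1 and 1.2 TPM (1.10 ± 0.141, n = 2). It was singled out because it is a signal in a row that the comparisons did not use, above the limit that a count of 0 allows (3 counts). Its level lies near those of Pcdhb13 and Pcdhb14, and with it 57 genes matching the pattern were expressed in both libraries.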

How the results depend on the processing

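Of 68 values under other settings, 46 stayed within the pools' SD or within 1.5 times the count. No paired analysis was possible because the design had 1 group. Means over members in place of medians gave 6.07 TPM for alpha, 3.75 for beta and 14.6 for gamma. The log2 differences were taken between means of the members' log2(TPM + 1) values, not between these TPM means. They were 1.2 (gamma minus beta), -0.68 (beta minus alpha) and 0.52 (gamma minus alpha, reversed from -0.13). For the differences of medians, in the same order, a pseudocount of 0.1 gave 1.06, -1.2 and -0.14, and 0.01 gave 1.08, -1.22 and -0.14. Posterior mean TPM gave -0.12 for gamma minus alpha. Without a fold threshold 10 members passed. Posterior SDs over 5% were found in 4 members and over 20% in 0, and expected and posterior mean counts differed by over 5% in 1. The C-type share of counts was 39.2% from TPM. After seeing the data, 4 more settings were added. With Pcdhgb8, 57 genes were expressed. Without Pcdhgc4 the C-type share was 17.2%, and with only transcripts under 50% constant bases it was 29.2%. That limit removed most full-length alpha transcripts by its construction (alpha median 0 TPM), so a limit of 90% was added after it, which removed Pcdhgc4-203 alone and gave 26.5%. Leaving out each replicate gave 56 expressed members both times, medians of 6.705 to 7.085 TPM (alpha), 2.82 to 3.075 (beta) and 6.07 to 6.40 (gamma), differences of 0.86 to 0.89 (gamma minus beta), -1.01 to -0.99 (beta minus alpha) and -0.13 to -0.12 (gamma minus alpha), and C-type shares of 31.7% to 34.0%. With 2 libraries the spread between pools rests on 1 difference, and the split of reads among transcripts sharing constant exons is a model estimate.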
